A study of Homo sapiens with 8 samples.

Results

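The genes described here encode the proteins that hold epithelial cells together: the cadherins of adherens junctions, the catenins that link them to actin, the cadherins and plaque proteins of desmosomes, the nectins with their adaptor afadin, and EPCAM. The list named 40 genes, and its members were the rows of the count table whose gene symbol equals a listed name. Of the 40, 38 had a row among the 30434 genes of the table; CDH17 and CTNNA2 are not analysed here. A filter on low counts was passed by 27 of them, out of 16430 genes in all, and only these entered the test.

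RNA was sequenced from SKBR3, an established human breast cancer cell line with amplified ERBB2 (HER2). There were 4 control libraries, with the genotype label WT, and 4 libraries from a stable line carrying lentiviral short hairpin RNAs against FOXA1, a pioneer transcription factor of luminal breast cells. The sources used here do not say whether the controls received a control virus, whether the knockdown line is 1 clone, or whether the replicates are separate cultures. The p-values therefore measure only the spread between these libraries, which may be technical.

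Cadherins bind the same or a related cadherin on the neighbouring cell, and their tails hold β-catenin or plakoglobin (JUP) and p120-catenin (CTNND1), with α-catenin (CTNNA1) joining the complex to actin. Nectins are immunoglobulin-like receptors that pair across cells and are tied to actin by afadin (AFDN). In desmosomes, desmogleins and desmocollins take the place of classical cadherins, and plakoglobin, plakophilins and the plakin desmoplakin (DSP) connect them to keratin filaments. SKBR3 is known for lacking E-cadherin (CDH1).

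Control libraries held between 21838121 and 23786684 counts and knockdown libraries between 19087878 and 23503753, so that 3 counts corresponded to 0.123 to 0.153 CPM (counts per 1000000 after TMM scaling of the libraries). FOXA1 itself lay at 192 ± 1.65 CPM in control and 3.96 ± 0.340 in knockdown (SD, n = 4 each). ERBB2, which defines the line, lay at 7308 ± 365 and 1340.05 ± 52.9 CPM. Control replicate 3 stood apart on the second principal component (-40.1, against 9.53 to 16.3 for the other controls). Of 11 luminal epithelial markers, 5 were higher in knockdown, 4 lower and 2 did not pass. KRT8 (4519 to 5619 CPM) and KRT18 (2312 to 3457) rose, while KRT19 (2645 to 723), KRT7 (2202 to 637) and ELF3 (471 to 117) fell; summed, the 11 came to 12399 to 13836 CPM in control and 10894 to 11834 in knockdown. Of 5 leukocyte markers with a row, summing to 5.68 to 7.41 CPM in control and 1.48 to 2.59 in knockdown, 4 were tested, of which 2 were lower and 1 higher. ESR1 had 28 to 35 counts in control libraries and at most 2 in knockdown, and PGR had at most 4 counts in any library. Much of the transcriptome differed between the groups: 12675 of 16430 genes (77.1%) passed an adjusted p of 0.05, 6475 of them higher in knockdown (39.4%) and 6200 lower (37.7%).

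Of the 27 junction genes tested, 26 passed that threshold, which is 96.3% beside 77.1% of all genes tested: 15 were higher in knockdown and 11 lower. Among all genes tested 39.4% were higher and 37.7% lower. A change of at least 2-fold was reached by 12 junction genes, 7 higher and 5 lower. That is 44.4%, beside 28.3% of all genes tested (14.9% higher and 13.4% lower). The 2 groups of libraries did not overlap for 25 junction genes, against 72.0% of all genes tested, and CTNNA1 and AFDN were the exceptions. Of the 27 tested, 5 (CDH2, CDH23, CDHR1, NECTIN3 and PKP1) passed the filter only through the group in which they were high. Among the 22 junction genes with at least 10 counts in every library, 21 passed the threshold (95.5%) and 7 changed at least 2-fold (31.8%); over the 13541 such genes of the table the shares were 77.7% and 20.1%. The median log2 fold change (knockdown over control, throughout) was 0.13 for the 27 junction genes and 0.02 for all genes tested. In bulk RNA, fewer cells that express a gene and less of its RNA per cell cannot be told apart.

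**Figure D1:**
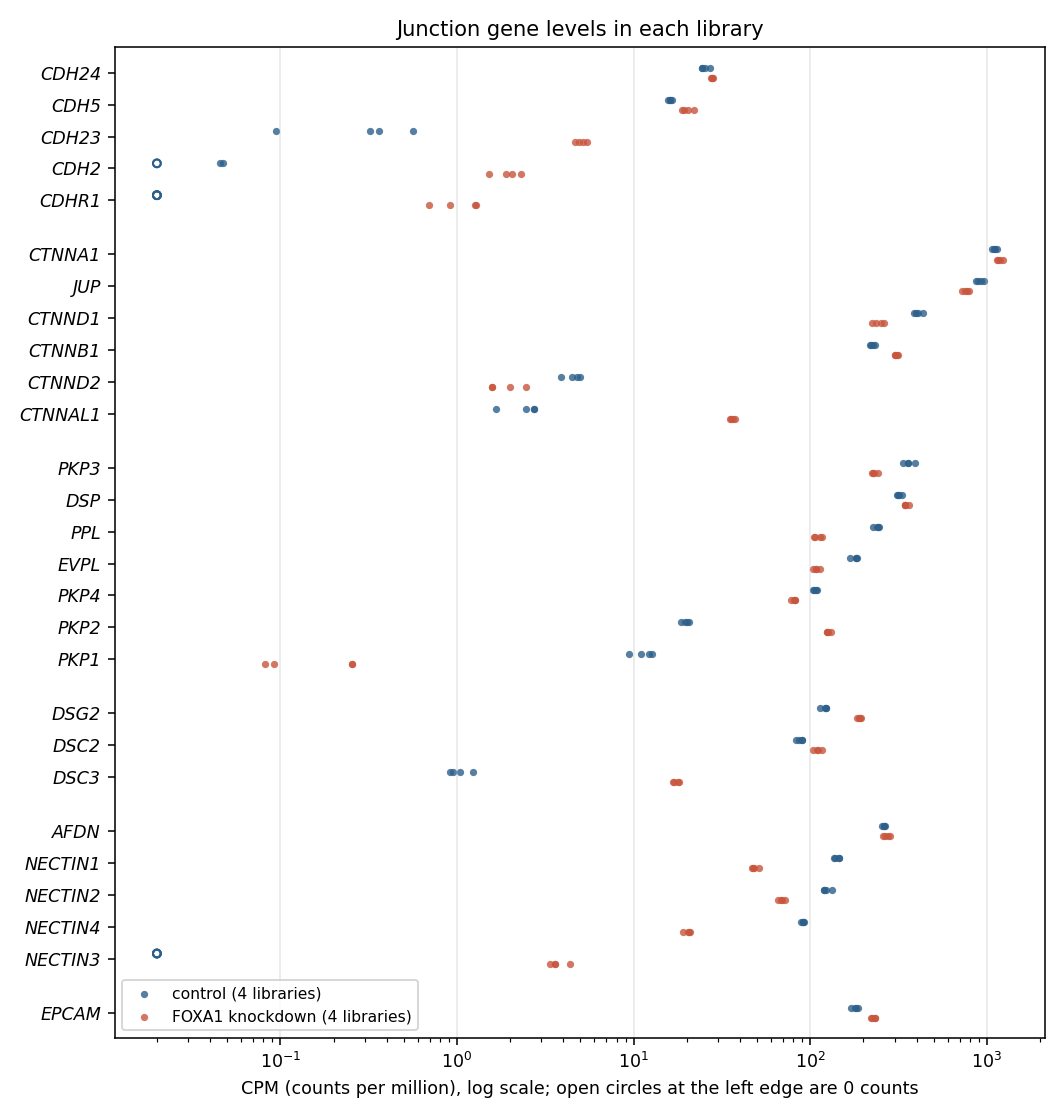
Level of each of the 27 junction genes tested in every library, in CPM (not scaled by length) on a log scale, with 1 point per library, control in blue, knockdown in red and open circles for 0 counts. CTNNA1 and JUP have the highest CPM in both groups, NECTIN4 and NECTIN1 move down in knockdown, and PKP2, CTNNAL1, DSC3, CDH2 and NECTIN3 move up.

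Levels of different genes were compared as CPM per kb of annotated exon, with the exons of all transcripts of a gene joined. The order between genes depends on these lengths. In plain CPM CTNNA1 (1109 in control) lay above JUP (913). In control the order began with JUP (185 ± 7.73), CTNNA1 (126 ± 3.40), PKP3 (95.5 ± 6.26), EPCAM (71.2 ± 2.88) and CTNND1 (46.1 ± 2.28, SD, n = 4). These were followed by NECTIN2 (33.1 ± 1.72), DSP (31.5 ± 1.06) and PPL (31.0 ± 0.981), which lay within their spread of one another. JUP and CTNNA1 kept ranks 1 and 2 in knockdown, at 153 ± 5.89 and 133 ± 4.597 CPM per kb. Further down the order moved: NECTIN4 went from rank 9 to rank 19 of 38, PKP1 from 20 to 32, PKP2 from 18 to 11 and CTNNAL1 from 21 to 14. NECTIN3, tied at 0 in control with DSG1, CDHR1 and CDH16, came to rank 22.

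Among the 14 listed cadherins, 5 were tested and were higher in knockdown, where 39.4% of all genes tested were higher. For CDH2, CDH23 and CDHR1 that direction follows from the filter, which they passed through the knockdown libraries alone; CDH5 and CDH24 passed it in both groups. Per kb of exon, the cadherins with a row summed to 9.58 ± 0.309 CPM in control and 11.8 ± 0.263 in knockdown, and the catenins with a row to 377 ± 8.53 and 352 ± 12.3. Most of the cadherin sum came from CDH24, a type II cadherin (70.6% in control and 63.1% in knockdown), and CDH5, known as VE-cadherin of endothelium (27.7% and 28.0%).

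CDH1 (chromosome 16, 68737225 to 68835548, plus strand, GRCh38), the E-cadherin of normal breast epithelium, was close to undetected in both groups. It had 1, 1, 1 and 3 counts in the control libraries and 13, 9, 7 and 7 in the knockdown libraries. The counts of the groups did not overlap, but they amount to no more than 0.067 ± 0.0415 and 0.400 ± 0.103 CPM. The ratio of summed counts was 5.93, with an exact 95% interval of 2.47 to 17.2 that covers counting error only. CDH1 failed the filter on low counts and so was not among the 27 tested. With no filter it was called higher (adjusted p = 7.24e-05, edgeR's quasi-likelihood test with Benjamini-Hochberg adjustment over 30434 genes), the only 1 of the 11 genes under the filter to pass in that alternative.

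CDH2 (chromosome 18, 27950966 to 28177446, minus strand), the N-cadherin of neural and mesenchymal cells, had 0, 1, 1 and 0 counts in control and 48, 56, 37 and 33 in knockdown. Every knockdown library was thus well above every control library, at 2.04, 2.29, 1.88 and 1.53 CPM. The summed counts differed 86.0-fold, with an exact 95% counting interval of 23.4 to 715 (adjusted p = 2.35e-12, edgeR's quasi-likelihood test with Benjamini-Hochberg adjustment). Even so, CDH2 made up 3.33% ± 0.588 of the cadherin sum per kb in knockdown.

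Other cell types that carry N-cadherin or VE-cadherin were checked through their markers. Fibroblast markers, with 9 of 10 in the table, summed to 6.04 to 7.74 CPM in control and 11.8 to 13.2 in knockdown. Of the 4 tested 2 were higher and 1 lower, where 39.4% of all genes tested were higher and 37.7% lower. COL3A1 and PDGFRB, the 2 higher, passed the filter through the knockdown libraries alone, so their direction follows from it. COL3A1 lay at 0.0222 CPM in control and 4.32 in knockdown, and PDGFRB at 0.410 and 2.83. COL1A1, the lower one, lay at 5.38 and 4.33 CPM. VIM had at most 11 counts and DCN at most 1 in any library. The 8 endothelial markers other than CDH5 itself summed to 22.8 to 26.2 CPM in control and 5.60 to 7.84 in knockdown. Of the 3 tested, VWF and ESAM were lower and ERG higher, against the same shares over all genes. ERG passed the filter through the knockdown libraries alone, so its direction follows from it. PECAM1 had at most 6 counts in any library, and KDR and ERG were at 0 in all controls. The part of these cell types in the cadherin results was not tested.

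CDH23 (chromosome 10, 71396934 to 71815947, plus strand), a long cadherin known from the tip links of hair cells, had 7, 8, 2 and 13 counts in control and 115, 114, 101 and 117 in knockdown. That is 0.335 ± 0.191 CPM against 5.03 ± 0.321, 15.02-fold higher as a ratio of the group means, with no overlap between the groups (log2 fold change 3.86, SE 0.491, adjusted p = 3.52e-14, edgeR's quasi-likelihood test with Benjamini-Hochberg adjustment). C10orf105, on the opposite strand, overlaps 18.9% of its exon bases but had a mean of only 2.5 counts. CDHR1 (chromosome 10, 84194635 to 84219621, plus strand), a photoreceptor cadherin, had no count in any control library and 30, 31, 18 and 15 in knockdown. Against a floor of 3 counts per library it was at least 7.62-fold higher (adjusted p = 1.89e-09, same test).

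The abundant cadherins changed little. CDH24 lay at 24.4, 24.5, 25.5 and 27.0 CPM in control and at 28.3, 27.4, 27.7 and 27.8 in knockdown, so the groups lay side by side without overlap (log2 fold change 0.13, SE 0.0348, adjusted p = 0.0216, edgeR's quasi-likelihood test with Benjamini-Hochberg adjustment). This call was lost with DESeq2 (adjusted p = 0.0617) and without control replicate 1 (0.0752) or control replicate 2 (0.0666), over a range of 2.54e-07 (neighbours' shift removed) to 0.0752 across the alternatives. CDH5 went from 16.1 ± 0.295 to 20.1 ± 1.36 CPM (log2 fold change 0.32, SE 0.05, adjusted p = 6.28e-05, same test). The other cadherins were under the filter, and with no filter none of them passed. CDH3, the P-cadherin of myoepithelium, had 4 to 15 counts in control and 5 to 10 in knockdown; CDH4 had 3 to 8 and 7 to 16, CDH18 at most 6, CDHR2 at most 6, and CDH6, CDH11 and CDH16 at most 3 in any library. Reads of CDHR2 are uncertain, since GPRIN1 overlaps it on the opposite strand with a mean of 281 counts.

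The start of CDH2 is shown because it is 1 of the few junction genes with a forkhead motif there. RefSeq start sites (GRCh38.p14) were found for 25 of the 40 listed genes, in 42 windows that run from 250 bases before to 50 bases after the start. Both strands were searched for forkhead motifs, the class that FOXA1 binds, in the form TGTTTAC or, as variants of it, TATTTAC or again TGTTTGC. The search also took in CAGGTG, the E-box bound by SNAI and ZEB repressors. Among the 42 windows TGTTTAC was found in 1 (2.38%), at DSC2, TATTTAC in none, and TGTTTGC in 4 (9.52%), at CDH2, CTNNA2, CTNND2 and JUP; 5 windows (11.9%) held at least 1 of them. Over all 34943 RefSeq windows of the same length the shares with a match were 3.42%, 2.68% and 3.89%, and 9.58% held at least 1 of these motifs. CAGGTG was found at 10 genes, in 11 of the 42 windows (26.2%), beside 20.6% of all windows, and none of its matches at these genes overlapped a forkhead match. A match describes these letters only. The CDH2 stretch (chr18:28036642-28036891, minus strand) precedes a start site inside the annotated gene, and its capitals mark TGTTTGC as read on the other strand.
CDH2 start: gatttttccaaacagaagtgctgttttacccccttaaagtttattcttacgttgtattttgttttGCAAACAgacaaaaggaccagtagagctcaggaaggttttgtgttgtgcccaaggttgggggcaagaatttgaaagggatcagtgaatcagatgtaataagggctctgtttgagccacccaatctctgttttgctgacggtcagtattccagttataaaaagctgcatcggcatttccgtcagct

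Catenins split evenly: of the 6 with a row, 3 were higher and 3 lower in knockdown, beside 39.4% and 37.7% of all genes tested. The abundant members moved by less than 2-fold, and the changes of at least 2-fold were in CTNNAL1 and CTNND2, which are scarce in control.

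JUP, plakoglobin, which serves both adherens junctions and desmosomes, was the most abundant junction gene per kb. It measured 930, 871, 958 and 894 CPM in control and 755, 767, 719 and 789 in knockdown, lower in every knockdown library. Its log2 fold change was -0.27 (SE 0.0411, adjusted p = 2.17e-07, edgeR's quasi-likelihood test with Benjamini-Hochberg adjustment). CTNNB1, β-catenin, which shares the same cadherin tail and also relays Wnt signals, moved the other way, from 224 ± 6.44 to 306 ± 7.25 CPM (log2 fold change 0.45, adjusted p = 5.07e-12, same test). The ratio of JUP to CTNNB1 per kb was 9.06 to 10.6 in the control libraries and 5.64 to 6.16 in the knockdown libraries. Its size depends on the lengths used, 4942 bases of annotated exon for JUP and 11927 for CTNNB1. In plain CPM the ratio is smaller, while its relative change between the groups is the same.

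CTNNA1, α-catenin, measured 1100.4, 1117, 1145 and 1074 CPM in control and 1142, 1188, 1148 and 1229 in knockdown. The groups overlapped, and the log2 fold change was 0.09 (SE 0.0315, adjusted p = 0.0218, edgeR's quasi-likelihood test with Benjamini-Hochberg adjustment). Without control replicate 1, control replicate 4 or knockdown replicate 4 the adjusted p was 0.0811, 0.118 and 0.102. Over the alternatives that kept the direction it ran from 3.14e-05 (library size only) to 0.118; with the shift of neighbouring genes removed the sign turned (log2 fold change -0.53). CTNND1, the p120-catenin that keeps cadherins at the membrane, fell in all knockdown libraries, from 406 ± 20.1 to 243 ± 16.8 CPM (log2 fold change -0.74, SE 0.0611, adjusted p = 6.2e-11, same test).

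CTNND2 (chromosome 5, 10971840 to 11904043, minus strand), the δ-catenin best known from neurons, lay at 4.95, 3.90, 4.80 and 4.48 CPM in control and 1.57, 2.01, 1.58 and 2.45 in knockdown. All knockdown values were below all control values (log2 fold change -1.25, SE 0.17, adjusted p = 4e-08, edgeR's quasi-likelihood test with Benjamini-Hochberg adjustment). CTNNAL1 (chromosome 9, 108942569 to 109013529, minus strand), an α-catenin-like protein, lay at 2.47, 2.72, 1.66 and 2.71 CPM in control and 37.4, 35.4, 35.2 and 36.3 in knockdown. It was 15.1-fold higher (log2 fold change 3.90, SE 0.168, adjusted p = 9.53e-23, same test), and control replicate 3 was the lowest library. The stretch before its start (chr9:109013530-109013749, minus strand) is shown as that of the catenin with the widest change; it holds none of the 4 motifs.
CTNNAL1 start: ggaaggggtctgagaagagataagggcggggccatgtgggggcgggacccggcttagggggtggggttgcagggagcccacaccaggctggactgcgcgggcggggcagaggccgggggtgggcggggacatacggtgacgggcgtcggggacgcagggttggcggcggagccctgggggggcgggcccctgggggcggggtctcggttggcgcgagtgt

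The 6 desmosomal cadherins lie in a cluster of 559 kb on chromosome 18 (30990008 to 31549008). DSG2, DSC2 and DSC3 were tested and all were higher in knockdown, where 39.4% of all genes tested were higher. DSG1, DSG3 and DSC1, which are known from stratified epithelium such as epidermis, stayed under the filter with at most 1, 11 and 4 counts in any library. Summed per kb, the desmosomal cadherins came to 26.6 ± 0.955 CPM in control and 41.9 ± 0.827 in knockdown, a description with no test.

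DSG2, the desmoglein of simple epithelia, measured 121.9, 123, 113 and 121 CPM in control and 188.5, 194, 184 and 192 in knockdown. The groups were far apart (log2 fold change 0.66, SE 0.0318, adjusted p = 1.16e-14, edgeR's quasi-likelihood test with Benjamini-Hochberg adjustment), and DSG2 made up 99.7% of desmoglein RNA per kb in control and 99.8% in knockdown. DSC2, its usual partner, went from 87.2 ± 3.06 to 109.7 ± 5.22 CPM (log2 fold change 0.33, adjusted p = 7.39e-08, same test).

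DSC3 (chromosome 18, 30990008 to 31042815, minus strand), a desmocollin of basal and stratified epithelium, lay at 0.916, 1.23, 1.05 and 0.948 CPM in control. In knockdown it lay at 16.7, 16.9, 18.1 and 17.9 CPM. That is a 16.8-fold rise with little spread in either group (log2 fold change 4.07, SE 0.0971, adjusted p = 2.91e-21, edgeR's quasi-likelihood test with Benjamini-Hochberg adjustment). DSC3 thereby went from 2.05% ± 0.264 to 21.9% ± 1.38 of desmocollin RNA per kb; without scaling by length it went from 1.17% to 13.7%. The 5 basal or squamous markers examined summed to 2.15 to 2.97 CPM in control and 9.05 to 10.4 in knockdown. In knockdown TP63 accounted for most of the sum, at 7.86 ± 0.552 CPM against 0.147 ± 0.0429 in control, while KRT17 was lower in knockdown (1.22 ± 0.213 and 0.180 ± 0.0925 CPM). Of the 3 tested, 1 was thus higher and 1 lower, where 39.4% of all genes tested were higher and 37.7% lower. TP63 passed the filter through the knockdown libraries alone and KRT17 through the control libraries alone, so their directions follow from it. KRT5 (1.14 and 1.31 CPM) did not pass the threshold. KRT14 had at most 7 counts and KRT6A at most 1 in any library. Their part in the DSC3 result was not tested.

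The stretches before the starts of both desmocollins are shown because these neighbours in the cluster differ in fold change, 1.26-fold for DSC2 and 16.8-fold for DSC3. DSC2 has 2 start sites in RefSeq. The inner (chr18:31101261-31101510) holds TGTTTAC and the outer (chr18:31102523-31102671) holds CAGGTG, both in capitals. The DSC3 stretch (chr18:31042816-31042992) holds none of the 4 motifs. All are on the minus strand.
DSC2 inner start: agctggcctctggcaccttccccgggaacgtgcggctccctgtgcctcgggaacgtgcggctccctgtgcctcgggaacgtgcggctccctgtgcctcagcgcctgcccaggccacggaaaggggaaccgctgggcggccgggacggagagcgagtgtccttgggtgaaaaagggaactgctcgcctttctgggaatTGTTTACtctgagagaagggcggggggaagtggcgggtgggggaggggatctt
DSC2 outer start: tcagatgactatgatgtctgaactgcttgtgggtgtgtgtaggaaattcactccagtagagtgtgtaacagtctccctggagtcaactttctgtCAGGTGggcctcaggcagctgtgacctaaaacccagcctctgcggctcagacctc
DSC3 start: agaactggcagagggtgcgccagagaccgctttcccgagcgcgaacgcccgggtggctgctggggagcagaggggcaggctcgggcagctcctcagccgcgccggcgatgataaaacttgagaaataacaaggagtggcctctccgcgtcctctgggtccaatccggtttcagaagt

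**Figure D2:**
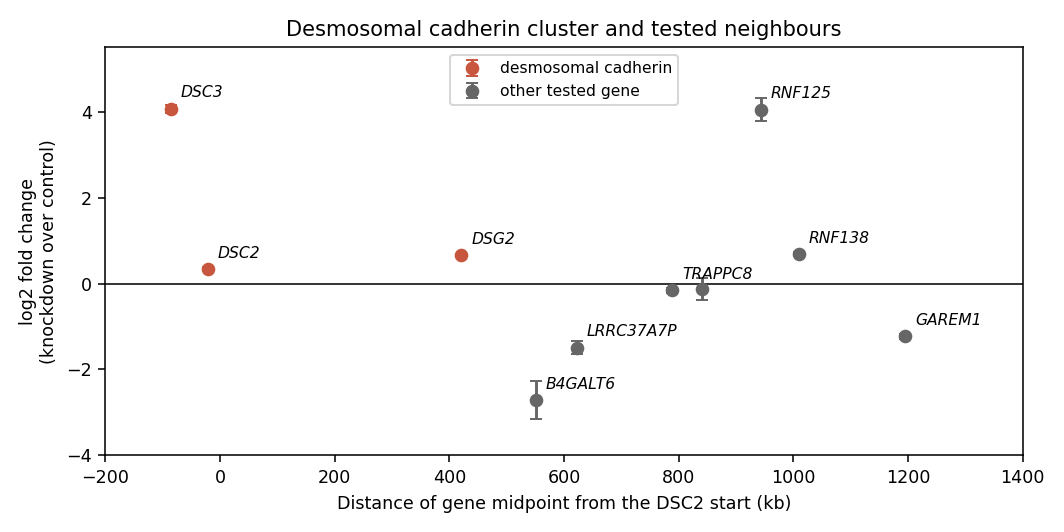
Log2 fold change of each tested gene within 2000 kb of the desmosomal cadherin cluster, by distance from the DSC2 start site in kb, with error bars of 1 SE; the desmosomal cadherins are coloured apart, and 1 gene without a symbol has no label. DSC3 stands at 4.07 next to DSC2 at 0.33, and RNF125 outside the cluster stands at 4.05.

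Of 7 other tested genes within 2000 kb of the cluster, 4 were lower and 2 higher in knockdown. Their median log2 fold change was -0.16, and they ran from -2.72 for B4GALT6 to 4.05 for RNF125. By comparison, 37.7% of all genes tested were lower and 39.4% higher.

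Of 7 plaque and plakophilin genes, 5 were lower in knockdown and 2 (DSP and PKP2) higher, with a median log2 fold change of -0.65. Among all genes tested 37.7% were lower and 39.4% higher. For PKP1 the direction follows from the filter, which it passed through the control libraries alone. The group takes in PKP4, PPL and EVPL, while JUP is counted with the catenins. Within the plakophilins, the armadillo proteins that bind desmosomal cadherins and desmoplakin, the family changed in make-up. PKP3 and PKP1 fell and PKP2 rose.

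PKP3, the plakophilin of most epithelia, measured 359.6, 336, 393 and 357 CPM in control and 225, 225, 230.3 and 241 in knockdown. No knockdown library reached the lowest control (log2 fold change -0.65, SE 0.0521, adjusted p = 6.23e-13, edgeR's quasi-likelihood test with Benjamini-Hochberg adjustment). PKP2 (chromosome 12, 32790745 to 32896840, minus strand), known from heart and simple epithelia, measured 18.6, 20.6, 19.6 and 20.1 CPM in control and 124.8, 123.7, 125.6 and 131 in knockdown. It was 6.41-fold higher, with tight replicates in both groups (log2 fold change 2.68, SE 0.0358, adjusted p = 2.27e-25, same test).

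PKP1 (chromosome 1, 201283452 to 201332993, plus strand), the plakophilin of stratified epithelium, had 268, 241, 267 and 217 counts in control and 6, 2, 5 and 2 in knockdown. In CPM this was 11.3 ± 1.503 against 0.171 ± 0.0969. The summed counts were 67.0-fold higher in control, with an exact 95% counting interval of 40.4 to 120 (log2 fold change -6.02, SE 0.405, adjusted p = 1.13e-18, edgeR's quasi-likelihood test with Benjamini-Hochberg adjustment). The stretch before its start (chr1:201283256-201283451, plus strand) is shown as that of the junction gene that fell most; it holds none of the 4 motifs.
PKP1 start: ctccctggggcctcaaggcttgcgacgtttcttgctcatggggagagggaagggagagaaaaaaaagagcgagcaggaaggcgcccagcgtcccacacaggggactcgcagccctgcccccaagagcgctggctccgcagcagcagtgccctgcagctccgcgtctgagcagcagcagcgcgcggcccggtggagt

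Among PKP1, PKP2 and PKP3 the share of PKP3 per kb went from 95.4% ± 0.276 to 77.2% ± 0.158, that of PKP2 from 2.81% ± 0.254 to 22.8% ± 0.148, and that of PKP1 from 1.82% ± 0.201 to 0.0351% ± 0.0202. Without scaling by length PKP2 went from 5.04% to 35.4%. The ratio of PKP3 to PKP2 per kb was 30.4 to 37.4 in the control libraries and 3.35 to 3.41 in the knockdown libraries. The sum of the plakophilins went from 100.1 ± 6.35 to 78.8 ± 2.41 CPM per kb.

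**Figure D3:**
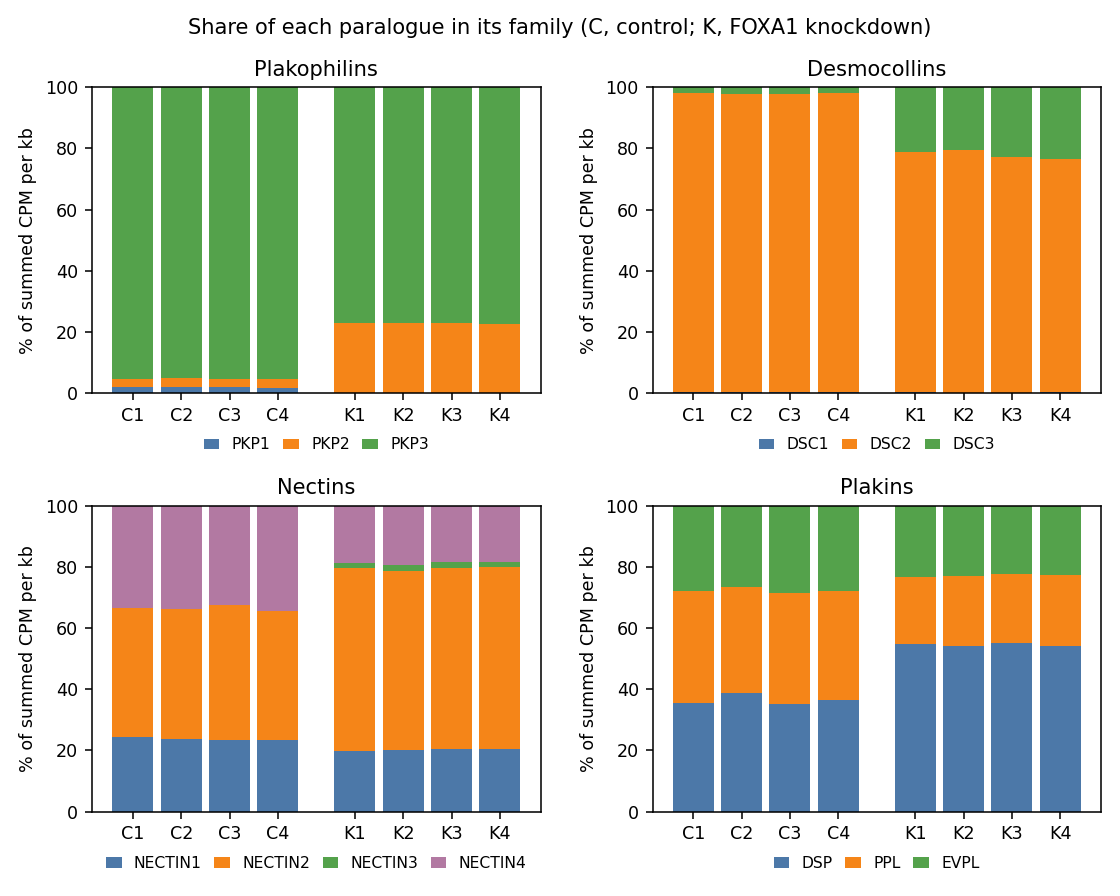
Share of each paralogue in its family per library, in percent of summed CPM per kb of exon, for plakophilins, desmocollins, nectins and plakins (C, control; K, knockdown). PKP2 goes from 2.81% to 22.8%, DSC3 goes from 2.05% to 21.9%, NECTIN4 from 33.5% to 18.6% and DSP from 36.5% to 54.6%.

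Among the plakins, which tie the plaque to keratin filaments, DSP was slightly higher and PPL and EVPL, known from the cornified envelope, were lower. PPL (chromosome 16, 4882507 to 4960741, minus strand), periplakin, measured 245.5, 228, 240.2 and 239 CPM in control and 104, 116, 106 and 113 in knockdown. All knockdown libraries were below the controls (log2 fold change -1.12, SE 0.0437, adjusted p = 9.19e-19, edgeR's quasi-likelihood test with Benjamini-Hochberg adjustment). Envoplakin (EVPL) fell from 179 ± 7.05 to 108 ± 4.23 CPM (log2 fold change -0.72, adjusted p = 7.23e-15, same test). DSP went from 317 ± 10.7 to 349 ± 8.88 CPM (log2 fold change 0.13, adjusted p = 0.00086, same test). PKP4, an armadillo protein of adherens junctions and desmosomes, fell from 107 ± 2.74 to 80.5 ± 2.15 CPM (log2 fold change -0.41, adjusted p = 5.02e-10, same test). DSP thus went from 36.5% ± 1.57 to 54.6% ± 0.547 of the plakin sum per kb, which itself went from 86.3 ± 0.890 to 63.3 ± 2.07 CPM.

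**Figure D4:**
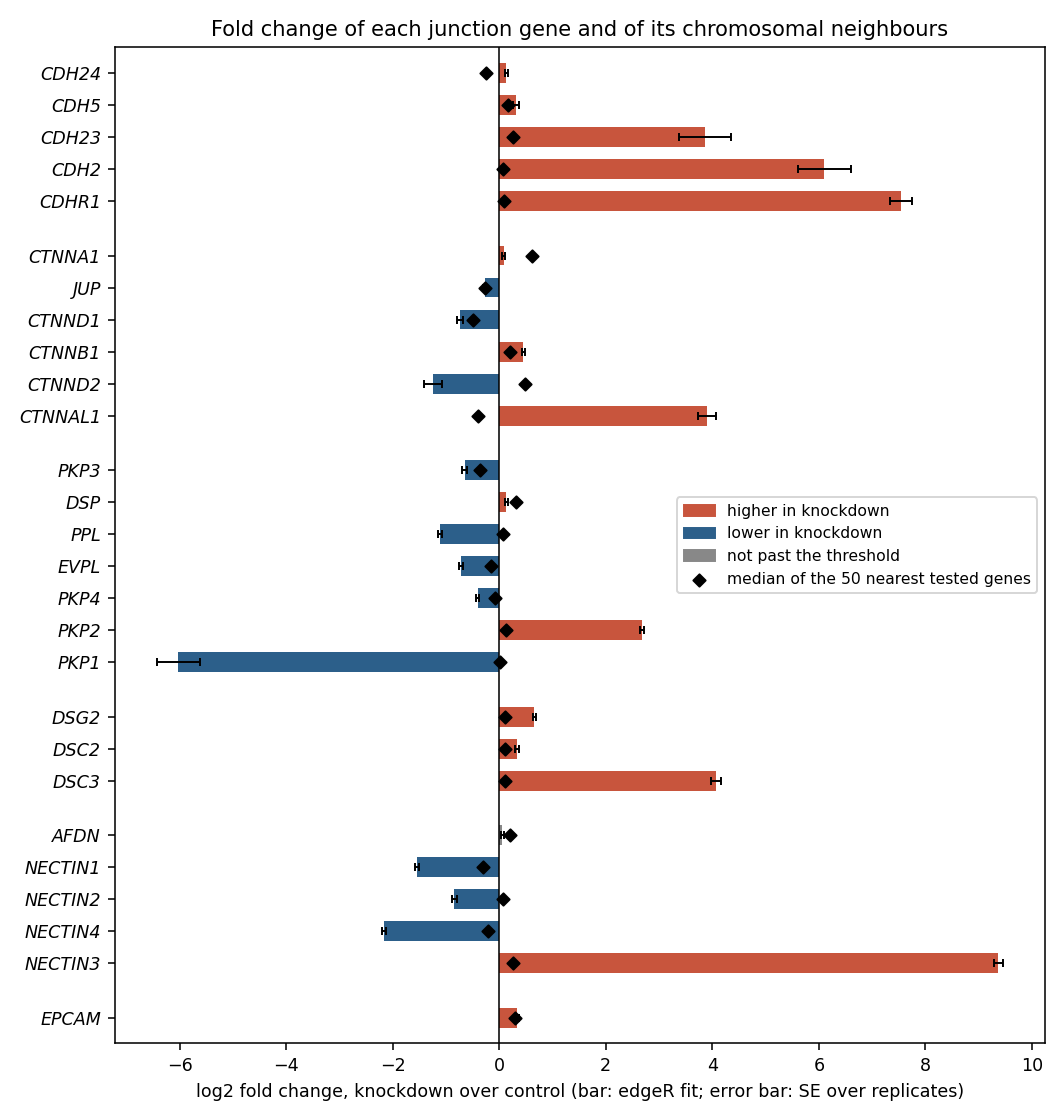
Log2 fold change, knockdown over control, of each of the 27 junction genes tested, ordered by role and by CPM (bars, red for higher, blue for lower and grey for not past the threshold, with error bars of 1 SE over replicates), and the median of the 50 nearest tested genes (diamonds). NECTIN4 and PKP1 fall far below their neighbours, CTNNAL1 rises against them, and JUP and EPCAM lie near them; bars of CDHR1 and NECTIN3 depend on the prior count, since their controls are at 0.

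Of the 4 nectins, 3 were lower in knockdown and 1 was higher, where 37.7% of all genes tested were lower and 39.4% higher. For NECTIN3, the higher one, the direction follows from the filter, which it passed through the knockdown libraries alone. Summed nectin RNA per kb went from 77.3 ± 2.34 to 31.0 ± 1.14 CPM. Afadin, their adaptor, did not pass the threshold.

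NECTIN4 (chromosome 1, 161070995 to 161089599, minus strand), the surface antigen of an antibody-drug conjugate used in urothelial cancer, measured 91.0, 89.0, 91.3 and 91.5 CPM in control. In knockdown it measured 20.2, 20.9, 19.2 and 20.6 CPM, or 22.3% of control. The spread within groups was small (log2 fold change -2.16, SE 0.0296, adjusted p = 1.91e-23, edgeR's quasi-likelihood test with Benjamini-Hochberg adjustment). NECTIN1 (chromosome 11, 119623408 to 119729084, minus strand), a partner of NECTIN4 in trans, fell to 34.2% of control. It measured 144.7, 137, 145.1 and 138 CPM in control and 47.5, 48.1, 46.5 and 51.2 in knockdown, again with no overlap (log2 fold change -1.55, SE 0.037, adjusted p = 2.48e-21, same test).

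NECTIN2, per kb the most abundant nectin, measured 123, 119.5, 133 and 120.3 CPM in control and 69.5, 68.3, 65.4 and 72.1 in knockdown, with all knockdown libraries lower. Its log2 fold change was -0.85 (SE 0.0467, adjusted p = 2.03e-15, edgeR's quasi-likelihood test with Benjamini-Hochberg adjustment). NECTIN3 (chromosome 3, 111070071 to 111275563, plus strand), the high-affinity partner of NECTIN1, was at 0 counts in all controls and at 84, 106, 70 and 73 counts in knockdown. It was at least 27.2-fold higher against a floor of 3 counts per library (adjusted p = 1.32e-14, same test). At 3.57, 4.34, 3.57 and 3.38 CPM it remained the scarcest nectin and took 1.94% ± 0.237 of the nectin sum per kb. The share of NECTIN2 went from 42.8% to 59.2%, that of NECTIN4 from 33.5% to 18.6% and that of NECTIN1 from 23.7% to 20.2%. Without scaling by length the order in control was another, with NECTIN1 at 39.7%, NECTIN2 at 34.8% and NECTIN4 at 25.5%. In knockdown these unscaled shares were 34.2%, 48.8% and 14.3%.

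AFDN measured 260 ± 4.41 CPM in control and 270.5 ± 10.6 in knockdown, and the groups overlapped (log2 fold change 0.06, adjusted p = 0.13, edgeR's quasi-likelihood test with Benjamini-Hochberg adjustment). It passed the threshold with upper-quartile scaling (log2 fold change 0.12, adjusted p = 0.00378), with library size alone (0.14, 0.000757) and without knockdown replicate 1 (0.0446); over the alternatives that kept the direction its adjusted p ran from 0.000757 to 0.347, and with the shift of neighbouring genes removed the sign turned (log2 fold change -0.15).

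The stretches before the starts of NECTIN3 (chr3:111071566-111071742, plus strand, inside the annotated gene) and NECTIN4 (chr1:161089600-161089808, minus strand) are shown because these nectins changed most, in opposite directions. Neither holds a forkhead motif in its window. The 1 match at NECTIN4, CAGGTG on the other strand, lies 33 to 38 bases before the RefSeq start, in the part left out here because it is annotated as exon.
NECTIN3 start: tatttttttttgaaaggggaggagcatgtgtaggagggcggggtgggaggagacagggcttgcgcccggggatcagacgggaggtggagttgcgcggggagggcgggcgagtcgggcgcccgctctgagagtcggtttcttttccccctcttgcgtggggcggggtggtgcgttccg
NECTIN4 start: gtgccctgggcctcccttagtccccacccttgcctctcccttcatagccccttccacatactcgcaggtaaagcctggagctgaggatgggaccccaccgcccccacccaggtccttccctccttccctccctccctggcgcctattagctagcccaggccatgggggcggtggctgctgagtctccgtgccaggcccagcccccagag

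EPCAM (chromosome 2, 47345158 to 47387601, plus strand), an epithelial adhesion protein outside these families, measured 181, 187, 169.9 and 179 CPM in control and 231, 223, 231 and 219.6 in knockdown. It was higher in every knockdown library (log2 fold change 0.33, SE 0.0348, adjusted p = 5.67e-09, edgeR's quasi-likelihood test with Benjamini-Hochberg adjustment).

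Each fold change was also set beside that of the 50 nearest tested genes, since genes of a chromosome segment can share a shift. The neighbours' median log2 fold change was 0.62 around CTNNA1, 0.31 around DSP, 0.20 around AFDN, 0.29 around EPCAM and -0.27 around JUP. With that shift taken out, CTNNA1 came to -0.53 (adjusted p = 1.49e-13), DSP to -0.18 (3.8e-05) and AFDN to -0.15 (0.000478), all in edgeR's test, and so turned in direction. JUP came to 0.0024 (0.956) and EPCAM to 0.04 (0.274), and neither passed. CTNND1, with neighbours at -0.50, came to -0.24, PKP3 to -0.29, CTNNB1 to 0.25 and CDH5 to 0.15, while CDH24 came to 0.39. For the 12 genes that changed at least 2-fold, the neighbours' medians lay between -0.41 and 0.48. What the neighbours share was not tested.

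Of 13 listed transcription factors known to repress CDH1, 11 had a row and 5 were tested: 3 were lower in knockdown and 2 higher. Those shares over all genes tested were 37.7% and 39.4%. TWIST2, 1 of the 2 higher, passed the filter through the knockdown libraries alone, so its direction follows from it. SNAI1 went from 2.78 ± 0.504 to 6.11 ± 0.267 CPM (log2 fold change 1.14, adjusted p = 8.26e-09, edgeR's quasi-likelihood test with Benjamini-Hochberg adjustment), and TWIST2 had 0 counts in every control library and 226 to 274 in knockdown. TCF3 (73.1 to 51.3 CPM), TCF4 (6.86 to 3.91) and KLF8 (33.3 to 24.1) were lower, with log2 fold changes of -0.51, -0.81 and -0.47. SNAI2, SNAI3, ZEB2, TWIST1, GSC and FOXC2 had at most 5 counts in any library and were not tested.

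Partners of the junctions moved in both directions. Of 22 genes for adherens junction partners, all tested, 13 were lower, 7 higher and 2 did not pass. Their median log2 fold change was -0.26. Over all genes tested 37.7% were lower and 39.4% higher, with a median of 0.02. Among these partners PTPRM, a phosphatase that binds itself across cells, went from 0.224 ± 0.102 to 66.9 ± 2.37 CPM. ARHGAP32, a GTPase-activating protein, went from 161 ± 5.11 to 25.1 ± 1.98 CPM. Of 9 desmosome and hemidesmosome partners tested, 4 were higher, 3 lower and 2 did not pass, against the same shares over all genes. ITGA6, the α6 integrin of hemidesmosomes, went from 0.225 ± 0.0983 to 163 ± 4.02 CPM. KAZN, kazrin, which binds periplakin, went from 92.4 ± 2.25 to 28.6 ± 2.03 CPM. PTPRM and ITGA6 passed the filter through the knockdown libraries alone, so their direction follows from it.

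In the rest of the cadherin superfamily 20 genes were tested, of which 6 were higher, 6 lower and 8 did not pass. DCHS1, a very large cadherin of planar polarity, went from 0.307 ± 0.132 to 6.62 ± 0.964 CPM. PCDH20 went from 7.08 ± 0.452 to 0.060 ± 0.0652 CPM. DCHS1 passed the filter through the knockdown libraries alone and PCDH20 through the control libraries alone, so their directions follow from it. Of 53 clustered protocadherins with a row, 16 were tested, and 11 of these were lower and 2 higher, with a median log2 fold change of -1.28. Among all genes tested 37.7% were lower and 39.4% higher. Several of the 16 passed the filter through a single group, so that their direction follows from it. Examples are PCDHGA1 (21 to 29 counts in control, at most 2 in knockdown) and PCDHAC2 (at most 2 and 24 to 48). None of the called ones reached a mean of 50 counts, and because the α and γ genes share their last exons, the assignment of reads among them is uncertain.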

How the data were processed

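The authors deposited raw counts per gene, whole numbers under versioned Ensembl identifiers with a symbol column. FastQC, Salmon 1.9, DESeq2 and hg38 appear in the submitters' processing notes. How Salmon's estimates became whole counts, the annotation release and the use of strand are not given in the sources used here; antisense overlaps are stated where a partner holds many reads. Reads were 101 bp, paired, per the labels' protocols. Groups came from the sample titles.

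From these counts, R 4.3.3 with edgeR 4.0.16 gave the main result. The filter was filterByExpr (minimum 10 counts, total 15), libraries were scaled by TMM (factors 0.965 to 1.04), and the quasi-likelihood test (glmQLFit, robust) compared knockdown with control. Benjamini-Hochberg adjustment ran over all 16430 genes, with a threshold of 0.05; the biological coefficient of variation was 4.56%. Fitted fold changes use a prior count of 0.125. SEs come from the spread of log2 CPM with 0.5 added to each count. Positions and exon lengths come from GENCODE 29 on GRCh38, and promoters from RefSeq, trimmed before the first annotated exon base. In simulated data for this comparison (16430 genes), 71.2%, 95.5% and 100% of genes with log2 changes of 0.5, 1 and 2 were recovered, and 6.32% of 190 calls were false. Only 66, 67 and 67 genes were changed by these sizes, up or down, and the scarcest genes were left out. In the real data 77.1% of genes passed, so the simulated shares do not carry over to them.

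The listed genes, role groups and other lists were chosen with earlier results of these data known. All listed genes are accounted for; those called with at least 2-fold change, CDH1 and the most abundant of each role are given in every library. From the lists of junction partners and other cadherins, the genes named are the strongest rise and fall with a mean of at least 50 counts; all cadherin repressors with a row are named. Cell type markers were named after their values were seen. The 17 alternatives comprised 3 other scalings (RLE, upper quartile, library size), 2 filters, DESeq2 1.42.0, limma 3.58.1 voom, a replicate block, each library left out, and the regional shift of the 50 nearest genes removed. Family shares without length scaling were added after seeing the data.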

Additional observations from a re-analysis of the deposited data

How the results depend on the processing

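Of 456 values of single genes under 17 alternatives, 442 kept their direction and their side of the threshold, 7 no longer passed, 3 passed newly and 4 turned in direction. The 4 were CTNNA1 (-0.53), DSP (-0.18), AFDN (-0.15) and JUP (0.0024, log2 fold change), all with the regional shift removed. JUP is counted by its sign alone, since it came to almost no change, and AFDN had not passed in the main result. With that shift removed JUP and EPCAM (0.04) no longer passed. The other losses were in CDH24 and CTNNA1, as given with their values. The number of junction genes called lower ran from 11 to 13, that called higher from 12 to 16, and that with at least 2-fold change from 9 to 13; with no filter on low counts CDH1 joined the genes called higher. The junction genes' median log2 fold change, 0.13, came to 0.19 with upper-quartile scaling, 0.22 with library size alone, 0.0859 with a mean of at least 50 counts (which leaves CDH2, CDHR1 and NECTIN3 untested) and 0.0024 with the regional shift removed; it ran from 0.11 to 0.14 when each library was left out. Scaling moved that of all genes by at most 0.084. Without control replicate 3 all 27 kept their call.

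With a replicate block 12453 genes passed, against 12675, and all 27 junction genes kept their call: 11 lower and 15 higher, with a median log2 fold change of 0.1348. Same-numbered libraries correlated at 0.0877, 0.168, -0.0355 and 0.0661 in their deviations from the group means over 12420 genes. Between differently numbered libraries the correlations ran from -0.119 to 0.074. These values do not settle whether the numbers mark pairs, and the main test did not treat them as such. At these depths the genes under the filter, CDH1 included, cannot show modest differences.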
